A study of Mus musculus with 4 samples.

Results

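The cadherins and protocadherins are calcium-dependent adhesion proteins, and 73 of the 31829 gene names on a mouse whole-genome array belong to them. They were taken by name alone: every gene called Cdh followed by a number, 24 genes, and every gene whose name starts with Pcdh, 49 genes. The array carries 94 probes for them, each 60 bases long, and 13 of the genes have several probes. Of the 73 genes, 57 were well above background on at least 1 array, 35 on all 4 arrays, and 16 on none.

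The RNA came from mouse embryonic fibroblasts (MEFs) of C57BL/6J mice, which are cells grown out of dissociated embryos, taken in logarithmic growth in DMEM with 10% fetal bovine serum. Each of 4 preparations gave 1 single-color array. The labels name them CycG1-/-CycG2-/- (DKO, lacking both cyclin G1 and cyclin G2), CycG1+/+CycG2+/+ (G1G2WT, the WT of DKO), CycG2-/- (labelled G2KO) and CycG2+/+ (labelled G2WT, the WT of G2KO). The CycG1 allele lacks all coding exons of Ccng1, both are germline knockouts, and the number of embryos behind a preparation is not given in the sources used here. With 1 array per genotype there is no spread within a genotype and no test, and no p-value is given.

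Classical cadherins hold like cells together: their extracellular repeats bind the same cadherin on the neighbouring cell, and their cytoplasmic tail binds catenins that reach the actin cytoskeleton. Type I members such as E-cadherin (Cdh1) and N-cadherin (Cdh2) mark epithelial and mesenchymal cells respectively, and exchange of one for the other accompanies transitions between these states. The clustered protocadherins of the alpha, beta and gamma groups are best known from neurons, where each cell uses its own choice of isoforms from arrays of alternative promoters, and the delta protocadherins are single genes with roles in sorting and migration of cells.

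Probe sequences of type II cadherins are shown first, because these genes are close relatives and a probe could read its neighbour, and with them that of Cdh13, the member farthest from 0 in DKO. Each probe is given 5′ to 3′ with its position on mm9, and capitals mark the longest run of bases that it shares with the probe of another member. The Cdh10 probe lies at chr15:18943342-18943401, the Cdh6 probe at chr15:12963981-12964040, the Cdh9 probe at chr15:16785915-16785974 and the Cdh13 probe at chr8:121837969-121838028.
Cdh10: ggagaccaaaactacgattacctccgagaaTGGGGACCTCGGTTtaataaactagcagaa
Cdh6: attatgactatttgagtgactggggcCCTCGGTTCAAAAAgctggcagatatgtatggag
Cdh9: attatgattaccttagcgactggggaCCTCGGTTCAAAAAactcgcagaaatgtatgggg
Cdh13: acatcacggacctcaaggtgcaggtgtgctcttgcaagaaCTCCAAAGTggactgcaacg
The probes of Cdh6 and Cdh9 were the most alike of all member probes of different genes, 10 edits apart over 60 bases, with a shared run of 14 bases. The Cdh10 probe shared 14 bases with the Cdh9 probe, and the Cdh13 probe shared no more than 9 bases with any other member's probe. The levels of Cdh6 and Cdh9 did not follow each other: Cdh9 lay between 0.0142 and 0.0184 on the 4 arrays, while Cdh6 ranged from 0.0811 to 0.815 in the units given next. Among the other families no pair of probes of different genes was closer than 25 edits.

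A level is the signal of a probe divided by the 75th percentile of its array, so a level of 1 means as bright as that percentile. It is comparable for a probe between arrays and not between probes. A ratio is the log2 of 1 level over another, and 4-fold is 2 on that scale. A probe not well above background on an array is called dim there. Where it was dim on 1 array of a pair, its level there was raised to that of the faintest probe not dim, unless it was above this already, and the ratio is a bound. For a gene with several probes the one with the highest mean log2 signal is its main probe. The scanner's own error of a level had a median of 0.144 to 0.145 on the log2 scale on each array, and spots of a probe differed by a median SD of 0.0752 to 0.122. These describe the array and not the cultures.

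The labels and the whole arrays set the frame for reading the values. Ccng1 stood at 1.98 on the array labelled G2KO, 9.45 on the array labelled G2WT and 1.66 on the G1G2WT array, and was dim on the DKO array, which put DKO at least 228-fold below G1G2WT. Ccng2 stood between 0.0619 and 0.104 on all 4 arrays, so its probe did not separate the arrays labelled as lacking it from the others. Over 24197 probes measured on all arrays, the array labelled G2KO was closest to the G1G2WT array, with an SD of log2 ratios of 0.535, while the arrays labelled WT differed from each other by an SD of 1.01. Only the array labelled G2WT showed Xist above background, and only the other 3 arrays Ddx3y, Eif2s3y and Uty, so the sex of the embryos differed between the arrays of the G2KO comparison. The labels of that comparison run against the study's own text, which has its G2KO MEFs as female, with Xist and Sox2 higher and Pdgfra lower than in WT. The study's methods describe dye-swapped arrays for its G2KO comparison, not single-color ones, so those values may come from other arrays than these. Here Xist (1.13) and Sox2 (2.37) were above background on the array labelled G2WT alone, where Pdgfra was dim, and Pdgfra stood at 1.75 on the array labelled G2KO. Which of these arrays came from the knockout was not settled by the Ccng2 probe. Each ratio between them is given as labelled, and with the labels turned it has the same size and the opposite sign. In that case the array labelled G2WT would not be a WT array.

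In the DKO array the Cdh genes differed from the WT array of the same comparison in both directions. Cdh1 and Cdh10 were far higher, Cdh11 and Cdh13 were far lower, and Cdh6 was lower. In all, 55 member genes had a ratio, of which 4 were at least 4-fold higher and 7 at least 4-fold lower, together 20% of the 55. Over all 22889 genes with a ratio in this comparison, 4.05% were at least 4-fold higher and 4.02% at least 4-fold lower. The median ratio of the members was 0.09, beside 0.03 over all genes. Among the 55 ratios 31 were above 0 and 24 below. Of the 11 genes past 4-fold, 5 are bounds, and with normexp background correction 6 genes passed, 3 in each direction. On the same array 11 of 12 mesothelial markers were at least 4-fold higher and 5 of 12 fibroblast markers at least 4-fold lower than in WT, and their part in these values was not tested. In whole cultures, fewer cells of a type and less RNA per cell cannot be told apart.

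**Figure D1:**
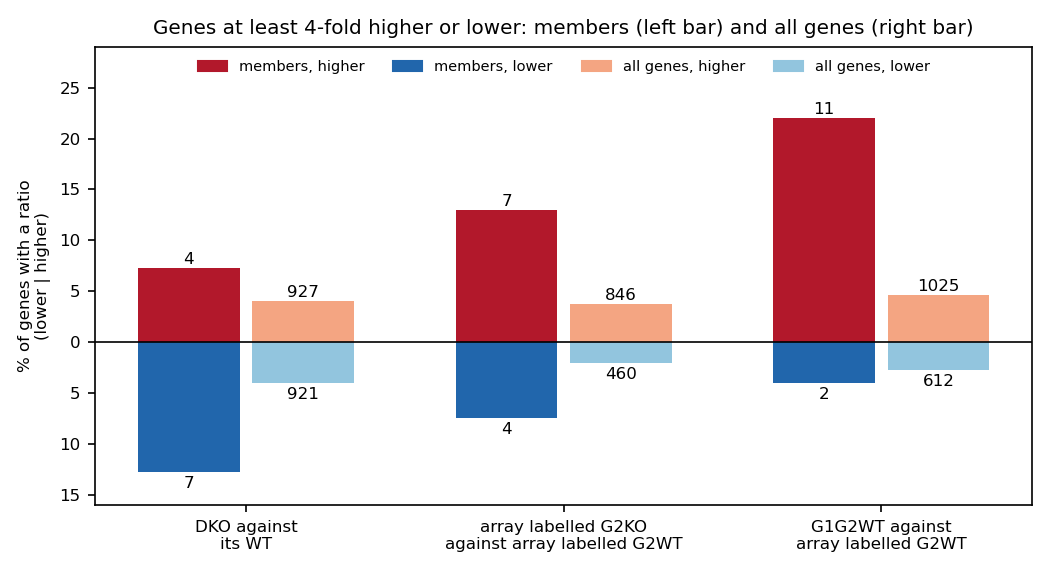
Share of genes with a ratio that were at least 4-fold higher (upwards) or lower (downwards), in percent, for the members (left bar of each pair) and for all genes on the array (right bar), in 3 comparisons of 1 array with 1 array. Numbers at the bars are counts of genes. In each comparison the members' bars are longer than those of all genes, for instance 7 lower members, against 4.02% of all genes, in the DKO comparison.

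Among the type I cadherins, Cdh1 encodes E-cadherin, the adhesion protein of epithelial junctions. Its level was 0.250 on the DKO array and 0.0130 on the array labelled G2WT, and it was dim on the array labelled G2KO (0.00718) and the G1G2WT array (0.0104). The DKO array thus stood alone above the other 3, and Cdh1 was at least 24.1-fold higher there than on its WT array, a ratio of at least 4.59. It rests on 9 spots of the same probe, and with normexp background correction the ratio was 2.67. The probe lies at chr8:109193812-109193871.

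Cdh3, P-cadherin, neighbours Cdh1 on the chromosome, with its probe at chr8:109079933-109079992. It stood at 3.78 on the DKO array, 1.64 on its WT array and 0.813 on the array labelled G2KO, and was dim on the array labelled G2WT (0.00198). Here the array labelled G2WT was the exception. The DKO array was 2.30-fold above its WT, under the 4-fold limit, while the array labelled G2KO was at least 114-fold and the G1G2WT array at least 230-fold above the array labelled G2WT. With normexp background correction the ratio of the array labelled G2KO to the array labelled G2WT was 4.17, beside at least 6.83.

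Cdh2, N-cadherin, was measured on all arrays, at 25.1 on the DKO array, 9.43 on its WT array, 6.31 on the array labelled G2KO and 26.8 on the array labelled G2WT. The DKO array and the array labelled G2WT were both high and the other 2 both low. The ratio was 1.41 for DKO against its WT and -2.08 for the array labelled G2KO against the array labelled G2WT, which is 4.24-fold lower. A second probe of Cdh2 gave 1.66 and -1.84 for the same comparisons, the latter just inside the 4-fold limit. Cdh15, the cadherin of muscle precursor cells, stayed between 0.0196 and 0.0499 with no ratio past 4-fold, and Cdh4, R-cadherin, was dim with all 3 of its probes on all arrays.

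Of the type II cadherins, 4 of 9 genes with a ratio were past 4-fold between DKO and its WT. Cdh11 is the cadherin of mesenchymal cells and bone-forming cells. Its level was 0.0360 on the DKO array, 4.37 on its WT array, 3.37 on the array labelled G2KO and 0.997 on the array labelled G2WT. DKO lay below all others, at 121-fold under its WT array, a ratio of -6.92 with a scanner error of 0.21. A second probe, close by on the chromosome, gave -3.83. Both probes put the DKO array lowest, and both put the G1G2WT array above the array labelled G2WT, by 4.38-fold with the main probe and 7.03-fold with the other.

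Cdh10, a cadherin known mainly from brain, went the other way in DKO. It stood at 0.491 on the DKO array, 0.0277 on its WT array, 0.0756 on the array labelled G2KO and 0.380 on the array labelled G2WT. DKO and the array labelled G2WT were high and the others low, as for Cdh2. DKO was 17.7-fold above its WT (4.15), the array labelled G2KO was 5.03-fold below the array labelled G2WT (-2.33), and the arrays labelled WT differed by 13.7-fold, G1G2WT being lower. Against the array labelled G2WT, the DKO ratio was 0.37.

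Cdh6, known from kidney tubules and the neural crest, had the mirror pattern. Its levels were 0.0811 on the DKO array, 0.583 on its WT array, 0.815 on the array labelled G2KO and 0.192 on the array labelled G2WT. DKO was 7.19-fold below its WT (-2.85), and the array labelled G2KO was 4.25-fold above the array labelled G2WT (2.09). Cdh22, a cadherin of pituitary and brain, was high on 1 array. It stood at 0.846 on the array labelled G2WT and 0.0304 on the G1G2WT array, and was dim on the DKO array (0.00193) and the array labelled G2KO (0.00187). The array labelled G2KO was at least 128-fold below the array labelled G2WT, and the arrays labelled WT differed by 27.8-fold. DKO was at least 4.16-fold below its own WT, a bound so near the limit that normexp background correction, with a ratio of -0.50, ended it.

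The other type II genes differed less. Cdh5, VE-cadherin of endothelium, was dim except on the array labelled G2KO, at 0.0205. Cdh8, Cdh9 and Cdh12 were measured on all arrays with ratios between -1.55 and 0.37 in the 3 comparisons. Cdh20 was well above background on the DKO array alone, at 0.0116, and Cdh7, Cdh19 and Cdh24 on none. For Cdh18 the probes disagreed: the main probe, drawn from a predicted transcript, stood between 33.1 and 51.6 on the arrays, while the probe for the curated transcript was well above background on the DKO array alone, at 0.0104. The values of Cdh18 are therefore uncertain as a measure of that gene.

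Cdh13, T-cadherin, is a cadherin anchored in the membrane by a lipid and without the tail that binds catenins. It stood at 14.3 on the G1G2WT array, 5.73 on the array labelled G2KO and 4.23 on the array labelled G2WT, and was dim on the DKO array (0.00702). The DKO array was thus at least 1956-fold below its WT, a ratio of at most -10.93. With normexp background correction this ratio was -8.15. Against the array labelled G2WT the bound was -9.18, and the other 3 arrays lay within 3.38-fold of each other. Of the remaining Cdh genes, Cdh26 was flat between 0.465 and 0.885, Cdh16 lay near background, and Cdh17, Cdh23 and Cdh29 (now Cdhr4) were dim on all arrays.

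**Figure D2:**
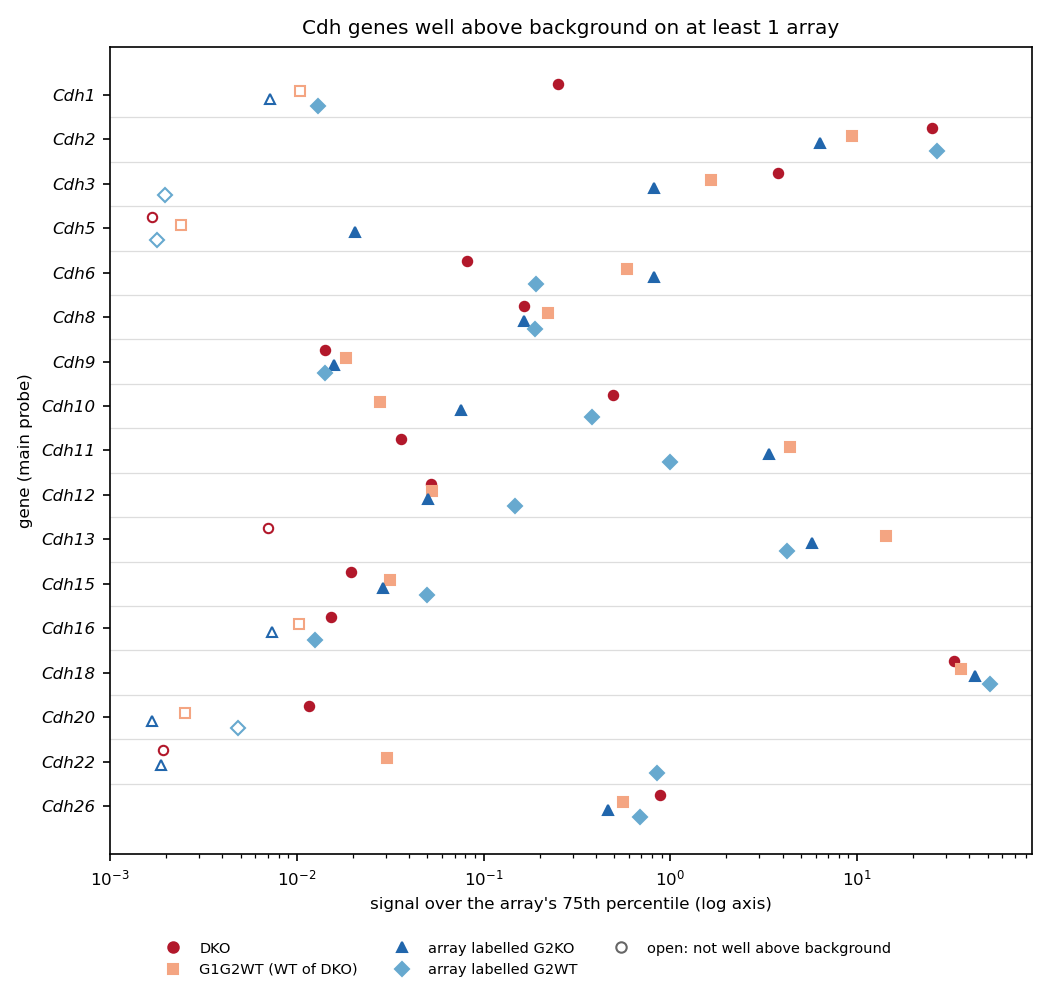
Level of each Cdh gene that was well above background on at least 1 array, as signal of its main probe over the 75th percentile of the array on a log axis, with 1 point per array. Open points were dim (not well above background). Cdh1 stands out to the right on the DKO array (0.250), Cdh11 (0.0360) and Cdh13 (0.00702) to the left, and Cdh3 is open on the array labelled G2WT alone.

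The gene with the next highest ratio in DKO was Pcdh21, now named Cdhr1, a cadherin of photoreceptor outer segments. It stood at 0.576 on the DKO array, 0.0373 on its WT array and 0.0208 on the array labelled G2KO, and was dim on the array labelled G2WT (0.00194). DKO was 15.5-fold above its WT (3.95), and the G1G2WT array was at least 5.20-fold above the array labelled G2WT. Pcdh24, now Cdhr2, a protein of the microvilli of gut and kidney, was flat between 1.04 and 1.42. Pcdh20 was seen on the G1G2WT array (0.0404) and on the array labelled G2KO (0.0454), and was dim on the DKO array (0.00255) and the array labelled G2WT (0.00688). Its bounds were at least 5.53-fold lower in DKO and at least 6.34-fold higher in the G2KO comparison. Pcdh12 was dim on all arrays. The probes of Pcdh15 lay near background, and for 1 of its 7 probes, not the main one, the array labelled G2KO was at least 4.31-fold below the array labelled G2WT, while the main probe gave -0.30.

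Of the delta protocadherins only Pcdh9 passed 4-fold. Its main probe stood at 0.0869 on the DKO array, 0.472 on its WT array, 0.0867 on the array labelled G2KO and 0.0106 on the array labelled G2WT. The arrays labelled WT were thus the highest and the lowest, 44.7-fold apart, with DKO and the array labelled G2KO level between them. This gave 5.44-fold lower in DKO and 8.20-fold higher on the array labelled G2KO, each against its own WT. The 3 probes of Pcdh9 disagreed in size: for DKO against its WT the others gave -2.16 and -0.02. Between the arrays labelled G2KO and G2WT they gave at least 0.83 and 0.84, both under 4-fold, so there the main probe alone passed.

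Pcdh19, a gene of epileptic encephalopathy in people, stood at 6.42 on the DKO array, 16.6 on its WT array, 16.6 on the array labelled G2KO and 12.8 on the array labelled G2WT, so DKO was lowest, 2.59-fold below its WT. Pcdh18 was at 2.26, 4.12, 3.13 and 8.62 in the same order, with DKO again lowest. Pcdh7 went upwards in DKO with its main probe, at 2.16, 0.572, 0.506 and 0.331 in that order, 3.78-fold above WT, while its other probes gave ratios of 0.54 and 0.23. None of these passed 4-fold. Pcdh1 was flat, at 0.482, 0.511, 0.488 and 0.650. Pcdh10 was at 0.0105 on the DKO array, 0.0131 on the array labelled G2KO and 0.0352 on the array labelled G2WT, and dim on the G1G2WT array. Pcdh17 was near background, at most 0.0353, and Pcdh8 was dim on all arrays. The main probe of Pcdh11x, from a predicted transcript, was flat between 0.103 and 0.149, and its curated transcript was seen on the array labelled G2WT alone, at 0.00943.

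**Figure D3:**
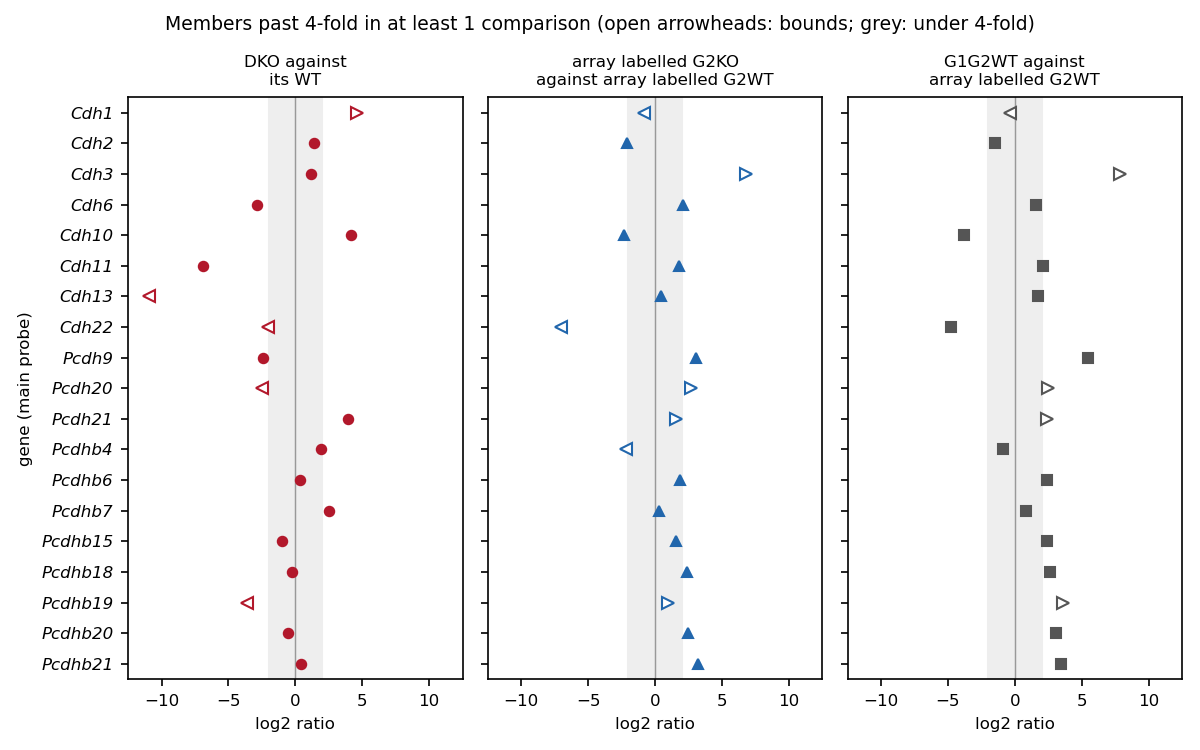
Ratio on the log2 scale of the 19 member genes past 4-fold in at least 1 of 3 comparisons. Filled points are measured on both arrays, open arrowheads are bounds and point away from 0, and the grey band is under 4-fold. Cdh13 at -10.93 or lower and Cdh11 at -6.92 stand farthest out for DKO, Cdh22 and Cdh3 between the arrays labelled G2KO and G2WT, and Cdh3 and Pcdh9 between the arrays labelled WT.

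In the beta protocadherin cluster 22 genes lie side by side on chromosome 18, and each has a promoter and a single exon of its own. No pair of their probes was closer than 25 edits. The DKO array had the most of them well above background, 18 of 22, beside 13 on its WT array, 13 on the array labelled G2KO and 16 on the array labelled G2WT. Over all probes it had the most as well, 72.2%, beside 65.0%, 68.2% and 68.5% in that order. Of the 11 genes seen on all arrays, 7 were highest on the DKO array and 8 were lowest on the array labelled G2WT. Among all 35 members seen on all arrays, 12 were highest on the DKO array, and 12 were highest and 10 lowest on the array labelled G2WT. Between DKO and its WT 18 genes had a ratio, 14 above 0 and 4 below, with a median of 0.43, but only Pcdhb7 and Pcdhb19 passed 4-fold. Pcdhb7 stood at 0.126 on the DKO array, 0.0224 on its WT array, 0.0153 on the array labelled G2KO and 0.0127 on the array labelled G2WT, and was 5.61-fold higher in DKO. Pcdhb19 was seen on the G1G2WT array (0.0883) and the array labelled G2KO (0.0143), and was dim on the DKO array (0.00545) and the array labelled G2WT (0.00205). It was at least 12.1-fold lower in DKO.

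Among the genes at the far end of the cluster, Pcdhb18, Pcdhb20 and Pcdhb21 were lowest on the array labelled G2WT by a wide margin, while Pcdhb16 was lowest on the array labelled G2KO (0.0519, beside 0.117). Pcdhb21 stood at 2.72 on the DKO array, 2.07 on its WT array, 1.76 on the array labelled G2KO and 0.192 on the array labelled G2WT. Pcdhb20 was at 0.611, 0.911, 0.588 and 0.106 in the same order. Pcdhb18 was at 0.200, 0.239, 0.203 and 0.0389. For these genes the first 3 arrays lay close together and the array labelled G2WT below them, by 2.38 to 3.42 on the log2 scale under G2KO and G1G2WT. Pcdhb15 (0.0215, 0.0423, 0.0236 and 0.00779) and Pcdhb6 (0.897, 0.692, 0.476 and 0.129) were likewise lowest on the array labelled G2WT, and passed 4-fold between the arrays labelled WT. Pcdhb4 was at 0.0601, 0.0160 and 0.0300 on the DKO array, its WT array and the array labelled G2WT, and was dim on the array labelled G2KO, at least 4.54-fold below the array labelled G2WT. Pcdhb2, Pcdhb11 and Pcdhb13 were dim on all arrays.

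**Figure D4:**
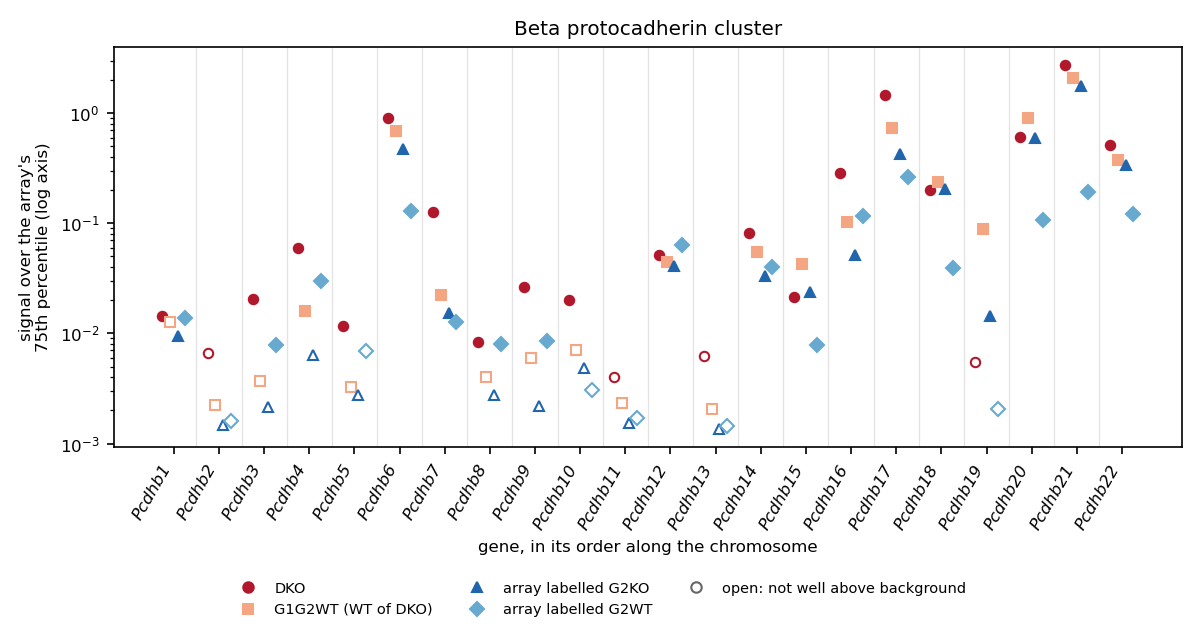
Level of the 22 beta protocadherin genes in their order along the chromosome, as signal over the 75th percentile of the array on a log axis, with 1 point per array. Open points were dim (not well above background). For Pcdhb17, Pcdhb18 and Pcdhb20 to Pcdhb22 the array labelled G2WT is lowest, for instance 0.192 for Pcdhb21. The DKO array is the highest for 7 of the 11 genes seen on all arrays, beside 12 of 35 over all members.

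The alpha and gamma clusters held no gene past 4-fold in any comparison. Of 7 alpha genes, 3 were well above background on some array, with ratios for DKO between 0.09 and 0.32, and Pcdhac2 was not with either probe. All 6 gamma genes were, and their DKO ratios ran from -0.91 to 0.45. The main Pcdhga9 probe was bright on each array, from 20.6 to 31.6. It lies beyond the Pcdhgc5 probe, towards the end of the cluster where isoforms share exons, so its signal may be that of several isoforms and is uncertain for Pcdhga9. Its ratio for DKO was 0.34.

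Between the arrays labelled G2KO and G2WT, 54 member genes had a ratio, 7 at least 4-fold higher and 4 at least 4-fold lower, together 20.4%. Over all 22793 genes with a ratio, 3.71% were at least 4-fold higher and 2.02% lower. As labelled, the higher genes were Cdh3, Cdh6, Pcdh9, Pcdh20, Pcdhb18, Pcdhb20 and Pcdhb21, and the lower ones Cdh2, Cdh10, Cdh22 and Pcdhb4. The median ratio of the members was -0.27, beside -0.17 over all genes. Without scaling 12 members were at least 4-fold higher and 1 lower, and with normexp background correction 3 were higher and 2 lower. Against the G1G2WT array in place of the array labelled G2WT, 3 of 48 members with a ratio passed 4-fold, beside 2.30% of 21412 genes. They were Pcdhb19, Pcdh9 and Cdh22, each downwards.

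The arrays labelled WT also differed from each other in the members. Of 50 genes with a ratio between G1G2WT and the array labelled G2WT, 11 were at least 4-fold higher and 2 at least 4-fold lower, together 26%, beside 4.63% and 2.76% of 22142 genes. The higher ones were Cdh3, Cdh11, Pcdh9, Pcdh20, Pcdh21, Pcdhb6, Pcdhb15, Pcdhb18, Pcdhb19, Pcdhb20 and Pcdhb21, and the lower ones Cdh10 and Cdh22. For 35 genes seen on every array, log2 ratios had an SD of 1.69 between the arrays labelled WT and 1.72 between DKO and its WT. The SD was 1.43 between the arrays labelled G2KO and G2WT, and 0.571 between the array labelled G2KO and G1G2WT. The 3 comparisons share arrays, so their values are not independent. With the labels of the G2KO comparison turned, the WT arrays would be G1G2WT and the array labelled G2KO, with the SD of 0.571 and the 3 genes past 4-fold given above. For Cdh13, where the DKO array lay far outside all 3 others, the arrays labelled WT differed by 3.38-fold. Cdh1 was dim on the G1G2WT array and at 0.0130 on the array labelled G2WT, and against the latter DKO was higher by 4.26 on the log2 scale. Cdh11 differed by 4.38-fold between the arrays labelled WT, and the DKO ratio against the lower one was -4.79.

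The catenins link cadherins to the cytoskeleton, and plakophilins do so at desmosomes. Of 15 catenin and plakophilin genes, 14 had a ratio for DKO, 1 at least 4-fold higher and 2 lower. The core of the complex was flat, with ratios of 0.06 for Ctnna1, which encodes alpha-E-catenin, -0.38 for Ctnnb1, beta-catenin, and 0.84 for Ctnnd1, p120-catenin. Ctnna2, the neural alpha-catenin, was at least 11.6-fold higher in DKO, Ctnnd2, the neural delta-catenin, was 51.9-fold lower, and Pkp1, a desmosomal plakophilin, was 5.26-fold lower. The desmosomal cadherins, which hold epithelial cells together at desmosomes, were mostly dim: at most 2 of 9 were well above background on any array. Of 13 atypical cadherins on the array, 9 had a ratio for DKO. Celsr1, a planar polarity gene, was 20.5-fold higher in DKO, and the paired polarity genes Dchs1 and Fat4 were 11.8-fold and 6.59-fold lower. None of the 8 genes of cadherin processing, such as the sheddase Adam10 (0.29), or of the 12 regulators of the protocadherin clusters, such as Ctcf (-0.19), passed 4-fold in any comparison.

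The repressor list holds transcription factors best known for acting on the Cdh1 promoter. Of its 11 genes, 10 had a ratio below 0 in DKO against its WT. At least 4-fold lower were 5 of the 11, beside 4.02% of all genes. The median ratio was -1.79, beside 0.03 over all genes. Snai1 was at 1.19 on the DKO array, 9.01 on its WT array, 8.69 on the array labelled G2KO and 2.53 on the array labelled G2WT, 7.56-fold lower in DKO. Gsc was at least 15.4-fold lower, Klf8 7.38-fold lower and Tcf4 4.71-fold lower. Zeb1 differed little, with a ratio of -0.53. On the array labelled G2KO only Twist2 passed 4-fold, at 11.5-fold above the array labelled G2WT, and it was 10.9-fold higher on the G1G2WT array as well.

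**Figure D5:**
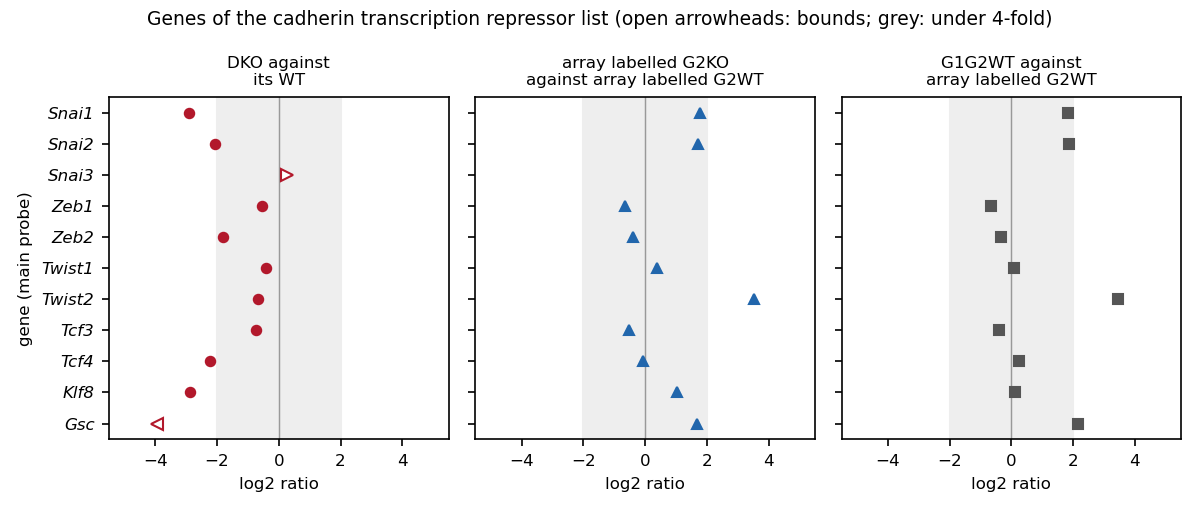
Ratio on the log2 scale of the 11 genes of the cadherin repressor list in 3 comparisons of 1 array with 1 array. Filled points are measured on both arrays, open arrowheads are bounds, and the grey band is under 4-fold. For DKO all but Snai3 lie left of 0, with Gsc at -3.95 or lower, and in the other panels most lie inside the band.

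The Snail and Zeb proteins bind the letters CACCTG, so the 250 bases before the start of transcription were searched for it on both strands, as CACCTG or CAGGTG. RefSeq promoters on GRCm38.p6 were matched for 25 of the 73 genes. Cdh1, Cdh2, Cdh3, Cdh11 and Cdh13 were not among them. The motif was in 5 of their 28 promoters, 17.9%, beside 17.3% of 32536 promoters in the table. Shown are the promoters of the genes with the largest measured DKO ratios in each direction that were matched, 5′ to 3′ along the gene, with the motif in capitals: Cdh10 at chr15:18820079-18820328 on the plus strand, Cdhr1 (Pcdh21 on the array) at chr14:37098348-37098597 on the minus strand, and Cdh6 at chr15:13173676-13173925 on the minus strand.
Cdh10: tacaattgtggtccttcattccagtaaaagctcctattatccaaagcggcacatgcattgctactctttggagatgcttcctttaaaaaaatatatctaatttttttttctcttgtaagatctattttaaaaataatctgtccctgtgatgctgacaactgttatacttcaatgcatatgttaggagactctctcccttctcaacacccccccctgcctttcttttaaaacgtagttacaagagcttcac
Cdhr1: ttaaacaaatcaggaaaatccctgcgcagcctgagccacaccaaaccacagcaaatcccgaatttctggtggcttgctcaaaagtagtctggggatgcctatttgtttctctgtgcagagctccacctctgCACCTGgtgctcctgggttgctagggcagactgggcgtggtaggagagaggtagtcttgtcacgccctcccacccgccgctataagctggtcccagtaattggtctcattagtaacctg
Cdh6: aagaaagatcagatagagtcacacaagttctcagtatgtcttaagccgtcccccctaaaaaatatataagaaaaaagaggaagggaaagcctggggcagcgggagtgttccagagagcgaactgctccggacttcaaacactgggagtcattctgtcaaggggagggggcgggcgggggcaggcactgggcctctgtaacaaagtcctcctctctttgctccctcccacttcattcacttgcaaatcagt
Cdhr1 held the motif 1 time, and Cdh10 and Cdh6 held none in this window. The windows held 2, 6 and 6 CG pairs in the order printed, beside a median of 6 over all promoters.

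Of the marker lists, the mesothelial one differed most between DKO and its WT, and no endothelial or macrophage marker passed 4-fold. The summed level of a list follows its brightest probes, so it is compared only between arrays and does not measure the amount of a cell type. All 12 mesothelial markers were well above background on the DKO array, with a summed level of 150.2, of which Msln alone was 100.2. On the other arrays between 4 and 6 of them were, with summed levels of 0.689 to 1.60. Of the 12, 11 were at least 4-fold higher in DKO than in its WT. They included Krt18 (at least 2406-fold), Upk1b (at least 950.2-fold), Wt1 (at least 874-fold) and Msln (204-fold). Mesothelium lines the body cavities and carries both keratins and cadherins. Of 12 epithelial markers, 8 were well above background on the DKO array and 6 or 7 on the others. Epcam, Ocln, Grhl2 and Ovol1 were dim on all arrays. The summed epithelial level was 0.977 on the DKO array, of which Esrp2 alone was 0.599, and 0.312 to 0.426 on the others. Esrp2 was at least 56.0-fold higher and Rab25 5.99-fold lower in DKO. The part of mesothelial or epithelial cells in the Cdh1, Cdh3, Cdh11 and Cdh13 values was not tested.

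Fibroblast markers were present on each array, between 10 and 12 of 12, with summed levels of 403 to 600.1, and 5 of them were at least 4-fold lower in DKO than in its WT, among them Postn (186-fold), Pdgfra (176-fold) and Thy1 (a ratio of -4.17), while Dcn was 16.6-fold higher. On the array labelled G2WT, Pdgfra and Lum were dim. Of the 12 fibroblast markers, 5 passed 4-fold between G2KO and G2WT as labelled, and 6 between the arrays labelled WT. In each case G2WT was the lower one, while 3 of the 12 went the other way under 4-fold. G2WT lay below G2KO for Pdgfra (244-fold or more), Thy1 (115-fold), Postn (19.2-fold) and Col3a1 (13.7-fold). On the array labelled G2WT 2 neural progenitor genes also stood out. Sox2 was well above background there alone, at 2.37, and Nes was at 28.0, beside 1.07 to 1.96 on the others. Summed neural levels were 45.8 on that array and 9.40 to 24.5 on the others. Ncam1 alone was at 15.0 and 7.32 to 22.4 in the same order, while Olig2 and Foxd3 were dim on all. The part of the neural marker genes in the high Cdh2, Cdh10 and Cdh22 values of the array labelled G2WT was not tested. Endothelial markers summed to 3.12 to 4.49, of which Kdr alone was 3.00 to 4.36, with Tie1 and Emcn at background. Skeletal muscle markers summed to 0.537 for G2KO as labelled, of which Chrna1 alone was 0.456, and 0.0616 to 0.172 on the other arrays. Of these 8 markers, 6 cleared background for G2KO and 2 or 3 elsewhere, with Myf5 at background. Chrna1 was 11.1-fold above G2WT for G2KO, and at least 13.9-fold lower in DKO than in its WT. Myod1, Myog and Actc1 were seen for G2KO only, at 0.0114, 0.00925 and 0.0253, and Des for DKO only, at 0.00943. Smooth muscle markers summed to 47.9 in DKO and 221 to 368 elsewhere, mostly from Acta2 and Tagln. In DKO, Tagln was 11.3-fold and Acta2 4.51-fold below G1G2WT. Of the 6 smooth muscle markers, 3 had a ratio below 0 in DKO and 3 above: Cnn1 (0.17), Smtn (0.48) and Myh11 (at least 1.40). Macrophage markers summed to 11.7 to 22.9, of which Itgam alone was 11.0 to 22.2, while Ptprc, Cd68 and Emr1 were at most 0.0368.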

How the data were processed

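From each of 4 MEF preparations, 200 ng of total RNA was labelled for a single-color Agilent mouse array, 1 per genotype and all on 1 slide. The deposited values are spot signal intensities that the authors obtained by Feature Extraction (file headers: 10.7.3.1, submitters' processing notes: 10.5.1.1), with background removed within the array. The deposited table holds the same signal intensity, with a largest log2 difference of 0.

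Control spots and spots marked as outliers were left out, spots of a probe were averaged as log2 values, and the 75th percentile over non-control spots was taken as the unit of each array (signals of 1586 to 2234). No spot was saturated. The number of arrays limits the precision. Probe positions (mm9) were copied from the files. Named with values are members past 4-fold in a comparison, 16 genes whatever their values, and, per comparison, at most 4 genes past 4-fold per companion list. Ctnna1, Ctnnb1, Ctnnd1, Zeb1, Snai2, Adam10, Ctcf, and other list genes under 4-fold or dim were added after their values were seen. The members and lists were chosen with earlier results of these data known. Ratios were computed with Python 3.11.15, numpy 2.4.6 and pandas 2.3.3 and tested on simulated data; limma 3.58.1 (R 4.3.3) gave the normexp (offset 50) and quantile alternatives. Others were the median as the unit, unscaled signals, the deposited table, filters on dim probes, limits of 2-fold and 10-fold, either or both WT arrays, turned labels, the median over probes, and probes for genes.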

Additional observations from a re-analysis of the deposited data

Results flagged for a closer look

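As labelled, for 4 genes the ratio was past 4-fold in opposite directions in the 2 comparisons of a knockout label with its WT label, with 1 array each, and the difference was not tested. Cdh10 was at 4.15 in DKO and -2.33 on the array labelled G2KO. Cdh6 was at -2.85 in DKO and 2.09 on the array labelled G2KO. Pcdh20 was at -2.47 in DKO and 2.67 on the array labelled G2KO, both bounds. Pcdh9 was at -2.44 in DKO and 3.04 on the array labelled G2KO. The labels of the G2KO comparison run against the study's own text, whose G2KO values may come from other arrays. With them turned the values in that comparison would be 2.33 for Cdh10, -2.09 for Cdh6, -2.67 for Pcdh20 and -3.04 for Pcdh9. Each is then in the direction of DKO by construction, since these 4 genes were picked for opposite signs. This cannot tell which labels are right. Of the other genes past 4-fold there, Cdh2, Pcdhb4, Pcdhb18 and Pcdhb20 would share the sign of DKO. Cdh3, Pcdhb21 and Cdh22 would not, and Cdh22, at most -2.06 in DKO, would be past 4-fold upwards.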

How the results depend on the processing

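The count of members past 4-fold was 11 for DKO (4 higher, 7 lower), 11 for the array labelled G2KO (7 higher, 4 lower) and 13 between the arrays labelled WT. With normexp background correction the counts were 6, 5 and 8, at a 2-fold limit 21, 24 and 24, and at a 10-fold limit 6, 2 and 6. With only probes well above background on both arrays, DKO had 6 and the array labelled G2KO 7. The array labelled G2KO had 3 against G1G2WT and 2 against the mean of both. The split of DKO was 12 higher and 3 lower against the array labelled G2WT, and 7 and 4 against the mean. Against the array labelled G2WT, 54 members had a ratio, and 9.62% of all genes passed 4-fold. With the labels of the G2KO comparison turned, chosen after seeing the data, its split was 4 higher and 7 lower, and 3 members passed between the WT arrays. Without scaling the split of the array labelled G2KO was 12 higher and 1 lower. No scaling moved the median of all genes by 0.50 there and 0.25 between the arrays labelled WT, and scaling to the median by -0.18 between the arrays labelled WT.

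Of 35 single-gene ratios past 4-fold, none turned under another scaling or background correction. Their sizes held less well: with normexp background correction 20 were counted as moved and 15 as the same. In DKO, Cdh1 went from 4.59 to 2.67, Pcdh20 from -2.47 to -0.70 and Pcdhb19 from -3.60 to -1.40, while Cdh6, at -2.31, was counted as the same. With the WT arrays exchanged, Pcdh9 turned to 3.04 in DKO, and on the array labelled G2KO Cdh10 turned to 1.45, Cdh3 to -1.02, Pcdh9 to -2.45, Pcdhb18 to -0.24, Pcdhb20 to -0.63 and Pcdhb21 to -0.23. With the mean of both, Pcdh9 turned to 0.30 in DKO. The cause was not tested. No paired analysis was possible because each group has 1 array, and leaving out a replicate was not possible for the same reason. Ratios of probes near background are limited by the floor of each array, from 0.00660 to 0.0102 of the 75th percentile.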
